A study of Mus musculus with 8 samples.

Results

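The mouse has 5 antigen receptor regions, of which 3 are rearranged in B cells (the heavy chain, kappa and lambda loci) and 2 in T cells (the T cell receptor alpha/delta and beta loci). Replication initiation sites (ISs), the places where DNA synthesis starts, were examined within them in CH12 cells. A site belonged to a locus when it lay wholly inside fixed mm9 bounds, namely 114.4 to 117.3 Mb of chromosome 12 for the heavy chain, 67.5 to 70.7 Mb of chromosome 6 for kappa, 19.02 to 19.27 Mb of chromosome 16 for lambda, 53 to 54.9 Mb of chromosome 14 for alpha/delta and 40.8 to 41.55 Mb of chromosome 6 for beta. By this rule the loci held 82 of the 39116 ISs in the table that compared Rif1KO with WT cells, and 482 of the 129937 ISs in the table that compared Rif1KO_shMcm6 with Rif1KO_shLacZ cells, called the hairpin table from here on. The rule uses position alone.

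Antigen receptor genes are assembled from separate V, D and J segments by recombination, which joins distant segments and can delete or invert the DNA between them. B lymphocytes rearrange the heavy chain and then the light chains, and T lymphocytes rearrange the T cell receptor loci instead. An activated B cell can also exchange its heavy chain constant gene, a process called class switch recombination that takes place in long tandem repeats, the switch regions, each placed upstream of a constant gene. These repeats are rich in guanine on the strand not used as the template and carry many copies of AGCT, a preferred target of the deaminase AID.

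CH12 is a mouse B lymphoma line that is widely used to study class switching. All cells were of this line and were grown with IL4, CD40 and TGF beta stimulation. The 4 groups were WT cells, Rif1KO cells that lack RIF1 (a regulator of replication timing), Rif1KO_shLacZ cells that carry a lentiviral control hairpin against LacZ, and Rif1KO_shMcm6 cells that carry a lentiviral hairpin against Mcm6, a subunit of the MCM helicase that opens DNA at origins. Both hairpin groups therefore lacked RIF1 and had no RIF1-proficient counterpart among these samples, and the clone of Rif1KO cells behind each library is not given in the sources used here. Short nascent strand sequencing (SNS-seq) was run on 2 libraries per group, and every IS in the 4 condition lists named a peak from both of them. The tables give 1 pooled density per group, in log2 RPM (RPM, reads per 1000000 reads that fell in the listed ISs), so no test over replicates was possible and intervals below cover counting error only. The reads inside ISs numbered 3350255 in WT, 3724571 in Rif1KO, 21071351 in Rif1KO_shLacZ and 23602750 in Rif1KO_shMcm6. The tables were scaled separately, and densities are compared only within a table. The lists keep only ISs that lie in clusters, so a region with no listed IS can still hold an isolated peak. SNS-seq measures no transcript or protein, so these labels and the cell type were not checked against a marker here.

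The densest IS of the heavy chain locus in WT and Rif1KO cells lay upstream of Ighm, the constant gene of IgM, and the densest in the hairpin table lay upstream of AI324046, a constant gene model between Ighm and Ighg1 in the annotation. The densest ISs of the other 4 loci in the Rif1KO and WT table are shown with them for contrast, since they had few or no AGCT copies. Each line below gives the central 300 bases of an IS from the mm9 reference, 5′ to 3′ on the strand of the constant genes of that locus, with each AGCT and each run of at least 3 G in capitals.

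heavy chain upstream of Ighm, chr12:114662838-114663137, minus strand: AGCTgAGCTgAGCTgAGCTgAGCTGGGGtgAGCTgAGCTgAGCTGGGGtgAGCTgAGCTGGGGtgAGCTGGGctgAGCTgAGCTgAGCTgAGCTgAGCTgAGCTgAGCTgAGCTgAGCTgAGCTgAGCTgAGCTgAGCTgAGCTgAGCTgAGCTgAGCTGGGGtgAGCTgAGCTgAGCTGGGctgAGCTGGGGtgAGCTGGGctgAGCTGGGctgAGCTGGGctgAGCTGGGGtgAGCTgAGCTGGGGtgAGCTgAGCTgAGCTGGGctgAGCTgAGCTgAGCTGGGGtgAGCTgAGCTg
heavy chain upstream of AI324046, chr12:114602161-114602460, minus strand: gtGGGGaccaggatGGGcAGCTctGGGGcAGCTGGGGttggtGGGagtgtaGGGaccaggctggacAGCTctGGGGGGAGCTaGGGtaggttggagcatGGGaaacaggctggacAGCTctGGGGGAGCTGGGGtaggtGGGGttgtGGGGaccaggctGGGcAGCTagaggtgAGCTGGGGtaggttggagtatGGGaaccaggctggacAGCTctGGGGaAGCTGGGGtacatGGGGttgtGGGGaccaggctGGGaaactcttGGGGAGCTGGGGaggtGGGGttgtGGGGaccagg
kappa, chr6:68814314-68814613, plus strand: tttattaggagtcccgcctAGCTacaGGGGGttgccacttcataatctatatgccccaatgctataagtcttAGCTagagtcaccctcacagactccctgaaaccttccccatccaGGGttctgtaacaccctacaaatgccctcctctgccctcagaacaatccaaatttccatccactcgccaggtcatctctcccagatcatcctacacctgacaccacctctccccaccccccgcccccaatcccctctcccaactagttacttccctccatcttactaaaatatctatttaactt
lambda, chr16:19176006-19176305, minus strand: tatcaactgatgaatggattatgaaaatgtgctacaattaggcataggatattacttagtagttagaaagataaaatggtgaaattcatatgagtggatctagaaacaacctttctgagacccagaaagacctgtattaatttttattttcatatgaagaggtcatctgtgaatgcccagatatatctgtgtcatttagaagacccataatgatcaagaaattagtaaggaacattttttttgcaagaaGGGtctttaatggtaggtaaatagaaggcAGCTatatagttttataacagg
T cell receptor alpha/delta, chr14:54677800-54678099, plus strand: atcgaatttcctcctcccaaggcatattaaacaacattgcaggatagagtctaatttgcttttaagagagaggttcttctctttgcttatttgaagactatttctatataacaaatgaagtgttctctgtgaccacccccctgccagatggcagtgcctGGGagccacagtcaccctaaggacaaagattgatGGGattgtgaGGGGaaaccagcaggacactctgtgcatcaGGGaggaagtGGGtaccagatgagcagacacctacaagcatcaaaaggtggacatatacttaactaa
T cell receptor beta, chr6:41119772-41120071, plus strand: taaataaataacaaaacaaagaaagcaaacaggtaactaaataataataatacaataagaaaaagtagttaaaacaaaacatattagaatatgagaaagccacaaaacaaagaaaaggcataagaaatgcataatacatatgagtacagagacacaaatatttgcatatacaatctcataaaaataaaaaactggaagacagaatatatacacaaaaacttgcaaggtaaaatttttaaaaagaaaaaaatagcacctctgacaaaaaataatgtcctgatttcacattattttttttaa

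The window upstream of Ighm held 46 copies of AGCT and 14 G runs, with 47.3% G and 17.3% C. AGCT (written A, G, C, T) reads the same on both strands, and its copies cannot share bases with a G run of GGG. No other IS of the Rif1KO and WT table had as many AGCT copies (1 of the 37004 ISs that were at least 300 bases wide), although 65.1% of those ISs had at least 1 copy. The window upstream of AI324046 held 11 AGCT copies and 25 G runs with no C run, and 0.0181% of the 127343 ISs of the hairpin table with a window (23 ISs) had as many AGCT copies. The printed kappa, lambda, alpha/delta and beta windows held 2, 1, 0 and 0 AGCT copies. The kappa window differed in another way, with 15 runs of C on the printed strand and 2 of G. Over the whole of each heavy chain IS, the site upstream of Ighm carried 153 AGCT copies in 1192 bases and the site upstream of AI324046 carried 77 in 2005 bases. As pools, the members were poorer in G and C than ISs in general. The heavy chain differed between the tables, with a median GC content of 49.7% over its 5 windows in the Rif1KO and WT table and of 39.3% over its 123 windows in the hairpin table. The pooled median over the central 300 bases was 37.3% at the B cell loci and 40.7% at the T cell loci against 46.7% over the Rif1KO and WT table, and it was 37.3% and 39% against 43.3% over the hairpin table. At least 4 runs of GGG on 1 strand were found in 50% of the B cell windows and 72.3% of the T cell windows in the first table, where 84.5% of all windows had them.

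In WT and Rif1KO cells the heavy chain locus held 6 ISs. The IS upstream of Ighm (chr12:114662392-114663583) ran over 3 predicted miRNA models, AC073553.1, AC073553.2 and AC073553.3, and began 1.45 kb from the Ighm gene model. Its density was 6.05 log2 RPM in WT and 6.13 in Rif1KO, from 222 and 261 reads, a log2 fold change of 0.08 (95% interval -0.18 to 0.35). It ranked 596th of 39116 ISs by mean density, and 63.4% of the 50-base windows in it occur once in the genome. A second IS (chr12:114667404-114667955) covered the joining segment Ighj2 in a window of fully unique sequence. Its density was 5.52 log2 RPM in WT and 5.35 in Rif1KO (154 and 152 reads), a log2 fold change of -0.17 (-0.50 to 0.16). Both ISs were called in both conditions, and neither changed beyond counting error. The other 4 ISs lay outside the segments. A pair below the constant genes, at 4.63 and 3.75 log2 RPM in WT, was listed in WT only, and a pair above the last V segment, at 4.75 and 3.99 log2 RPM in Rif1KO, was listed in Rif1KO only. The log2 fold changes of these 4 ISs lay between -0.12 and 0.06, and all 4 intervals included 0.

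No IS was listed in WT or Rif1KO cells between the joining segments and the far end of the variable segments, a stretch of 2.59 Mb. The span of the 116 annotated heavy chain V segments covers 2.43 Mb, where 0 ISs allow up to 1.24 per Mb, while the whole WT and Rif1KO lists held 9.51 and 12.4 ISs per Mb of genome. That limit takes ISs as evenly scattered, but they lie in clusters, so it is tighter than the true spread allows. In the hairpin cells the same span was populated, with 79 ISs in Rif1KO_shLacZ (32.6 per Mb) and 92 in Rif1KO_shMcm6 (37.9 per Mb), close to the 37 and 42.6 per Mb of their whole lists. The hairpin table in turn had no IS between chr12:114642145 and chr12:114802279, a stretch that holds Ighm, the AGCT-rich site upstream of it and the J segments, and its nearest IS to Ighm lay 16.9 kb away on the side of the other constant genes.

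**Figure D1:**
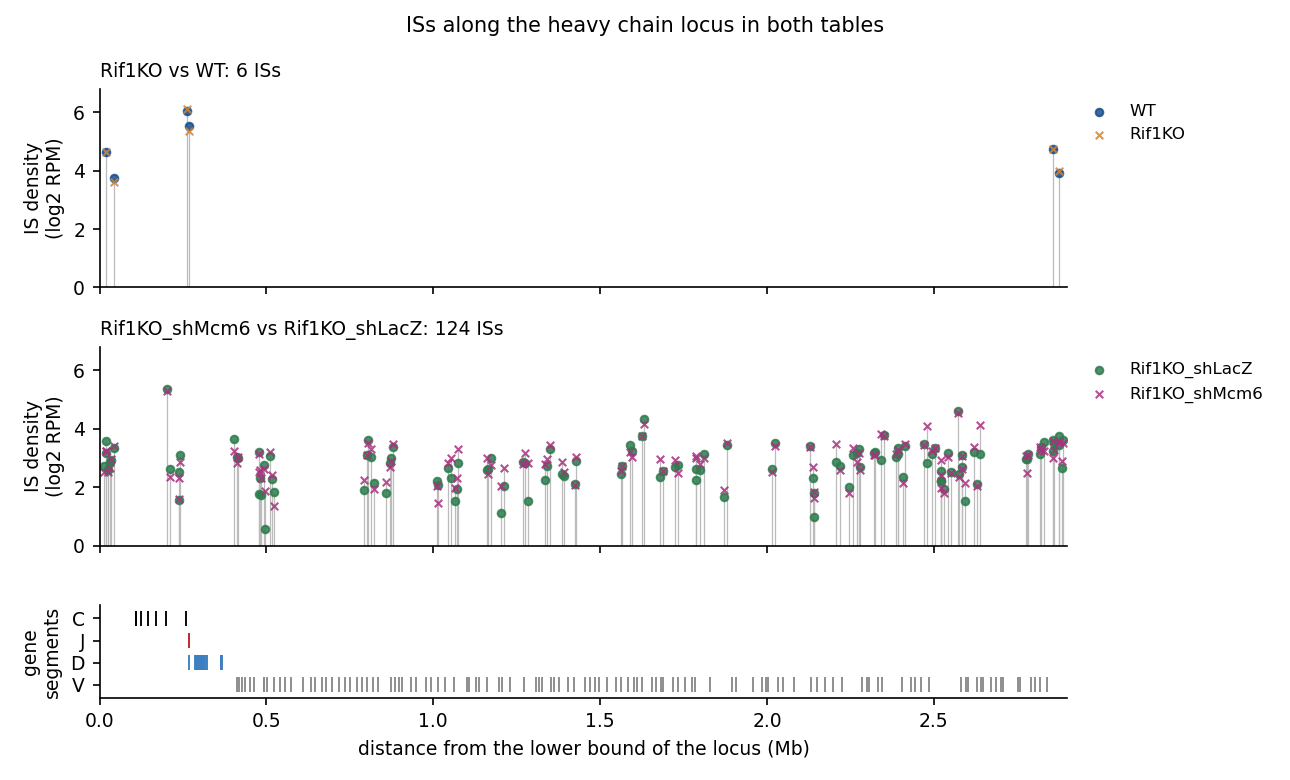
Density of each IS along the heavy chain locus (log2 RPM, vertical) against distance from its lower bound (Mb), for WT and Rif1KO above and the hairpin groups in the middle, with C, J, D and V segments as ticks below. The upper panel has 6 ISs and none over the V segments, whereas the middle panel has 124 ISs that run across them.

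The strongest heavy chain IS of the hairpin table was the one upstream of AI324046 (chr12:114601308-114603312). Its density was 5.35 log2 RPM in Rif1KO_shLacZ and 5.28 in Rif1KO_shMcm6, from 859 and 919 reads, and the log2 fold change was -0.07 (-0.20 to 0.07). It ranked 79th of 129937 ISs, and 98.7% of its 50-base windows are unique. It was listed in Rif1KO_shLacZ only. WT and Rif1KO cells had no listed IS within 62.9 kb of AI324046. No IS in either table overlapped a heavy chain constant gene model. Tmem121, a neighbour below the constant genes, and Zfp386, a zinc finger gene above the V segments, had ISs within 1 kb of their starts in the hairpin table. The Tmem121 IS had 6.07 RPM in Rif1KO_shLacZ and 5.68 in Rif1KO_shMcm6, and the denser of the Zfp386 pair had 12.2 and 11.4 RPM.

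Of the 124 heavy chain ISs of the hairpin table, 4 overlapped an IS of the Rif1KO and WT table (3.23%), and all 4 lay outside the segments. Over the V segments the count was 0 of 103, which allows a share of up to 2.91%. Weak ISs had fewer counterparts over the whole table. With the whole hairpin table split into 4 equal classes of density, 3.07% of the ISs in the lowest class had a counterpart and 58.3% in the highest. At the shares of their own classes, 25.1 of the 103 V segment ISs would have had one. Among the 23 V segment ISs in the highest class the count was still 0, against 58.3%. Runs of neighbouring hairpin ISs without a counterpart were common, with 20299 in the genome. The run that began at the IS upstream of AI324046 and ended at chr12:117257433 held 111 ISs, the eighth longest by number. It ranked first when each IS was weighted by the share found in its density class (27.3 counterparts at those shares). This comparison sets cells with and without lentiviral hairpins side by side, and the infection, the deeper sequencing of the hairpin libraries and any difference between clones cannot be told apart in it. Whether the DNA of the V segments is present in all 4 groups was not tested.

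**Figure D2:**
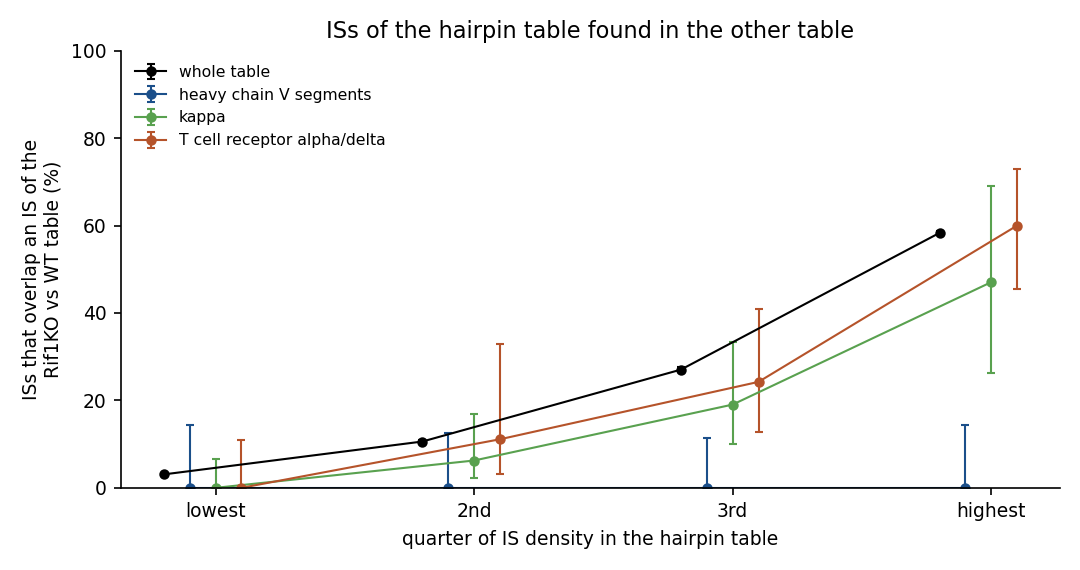
Share of hairpin table ISs that overlap an IS of the Rif1KO and WT table (%, vertical) in 4 equal classes of IS density from the lowest to the highest (horizontal), with 95% Wilson intervals. The intervals treat neighbouring ISs as independent and so are narrower than the true spread. The heavy chain V segments stay at 0 in all classes, while kappa reaches 47.1% and alpha/delta 60% in the highest class, beside 58.3% for the whole table.

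The kappa locus also held fewer counterparts than the class shares give, but not none. Of its 161 ISs in the hairpin table, 19 overlapped an IS of the Rif1KO and WT table (11.8%), against 28.0 at the shares of their density classes. WT and Rif1KO cells had 24 ISs there, all nearest to V segments, and the last of them ended at chr6:69636513. The remaining 1.06 Mb, towards the joining segments and Igkc, the kappa constant gene, held 59 of the ISs of the hairpin table. This boundary was placed by the last IS itself, so the empty stretch is a description and carries no limit or comparison. The stretches before and after it were alike in unique sequence, with 73.2% and 70.4% of 50-base windows. No IS lay over Igkc in either table, and the closest was 12.6 kb away in the hairpin table and 1040 kb away in WT and Rif1KO cells.

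**Figure D3:**
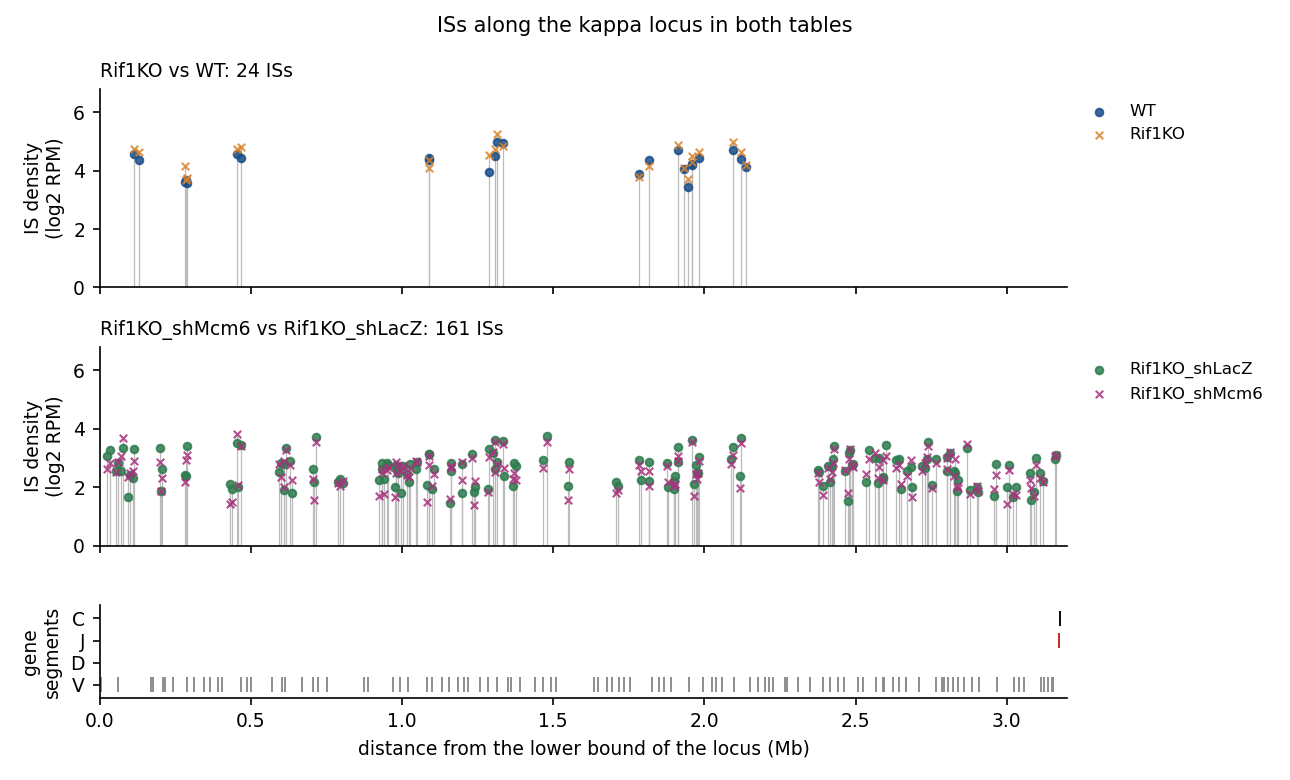
Density of each IS along the kappa locus (log2 RPM, vertical) against distance from its lower bound (Mb), drawn as for the heavy chain. The 24 ISs of WT and Rif1KO cells stop before the last 1.06 Mb, where the hairpin table has 59 of its 161 ISs.

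The densest kappa IS in WT and Rif1KO cells (chr6:68814194-68814732, 1.17 kb from Igkv1-88) had 4.97 and 5.27 log2 RPM from 105 and 144 reads, a log2 fold change of 0.30 (-0.07 to 0.68). The densest in the hairpin table (chr6:67952376-67953217) had 3.52 log2 RPM in Rif1KO_shLacZ and 3.81 in Rif1KO_shMcm6 from 241 and 331 reads, a log2 fold change of 0.29 (0.05 to 0.54). It was also found in WT and Rif1KO cells, at 4.58 and 4.73 log2 RPM. The small lambda locus had 0 ISs in the WT list, 3 in Rif1KO and 13 in each hairpin list. The 3 Rif1KO ISs still carried reads in WT, and the densest of them (chr16:19175953-19176358) had 4.28 log2 RPM in WT and 4.50 in Rif1KO from 65 and 84 reads. The densest lambda IS of the hairpin table (chr16:19074573-19075362) lay 7.31 kb from Iglc3, a lambda constant gene, at 3.44 and 3.43 log2 RPM, and only 20.5% of its windows are unique.

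The T cell receptor loci are not rearranged by B cells. The alpha/delta locus held 42 ISs in WT and Rif1KO cells and 127 in the hairpin table. An IS over the start of Trac, the constant gene of the alpha chain, was present in both tables (chr14:54840153-54840778 and chr14:54840152-54840802). It had 5.08 log2 RPM in WT and 5.42 in Rif1KO from 113 and 160 reads, a log2 fold change of 0.35 (-0.01 to 0.71), and 3.86 log2 RPM in Rif1KO_shLacZ and 3.63 in Rif1KO_shMcm6 from 305 and 292 reads, a log2 fold change of -0.23 (-0.46 to 0.01). Both intervals reached 0. A further IS in an intron of Trac (chr14:54841922-54842427) was listed in the hairpin table alone, at 2.88 and 2.99 log2 RPM. An IS in an intron of the neighbouring gene Dad1, which codes for a subunit of the oligosaccharyltransferase (chr14:54857663-54858257), had 5.15 log2 RPM in WT and 5.03 in Rif1KO with no counterpart in the hairpin table. The densest alpha/delta IS of the hairpin table (chr14:53275932-53277291, 9795 bases from Trav6-2) had 4.44 and 4.52 log2 RPM from 456 and 542 reads, and the matching site had 5.63 log2 RPM in WT and 5.64 in Rif1KO. The largest interval without an IS, 0.689 Mb in WT and Rif1KO cells and 0.545 Mb in the hairpin table, lay at overlapping positions within the V segments, and in the first of these 20.6% of 50-base windows are unique against 73.9% in the empty span of the heavy chain. Of the 127 hairpin ISs, 37 overlapped an IS of the other table, near the 38.0 at the shares of their density classes.

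The beta locus held 7 ISs in WT and Rif1KO cells and 55 in the hairpin table, with 6 of the 55 overlapping (10.6 at the shares of their density classes). Beta also had a stretch filled in the hairpin table alone. Its largest interval without an IS in WT and Rif1KO cells, chr6:41120241-41436295 (0.316 Mb, with 75.2% unique windows), held 28 of the 55 ISs of the hairpin table. The interval was picked for being empty in those cells, so this is a description. Among the 20299 runs of hairpin ISs without a counterpart, this run ranked 348th by number and 397th by the weighted count. The densest in WT and Rif1KO cells (chr6:41119601-41120241, 6.05 kb from Trbv17) had 31.9 RPM in WT and 36 in Rif1KO from 107 and 134 reads, and the densest in the hairpin table (chr6:41224055-41225475, 2.17 kb from Trbv29) had 3.85 and 4.05 log2 RPM from 303 and 391 reads. Neither table had an IS over Trbc1 or Trbc2, the constant genes. Trypsinogen genes lie inside this locus, and ISs within 1 kb of the starts of Try10 and Prss2 were listed in the hairpin table. The Try10 IS had 2.29 log2 RPM in Rif1KO_shLacZ and 2.76 in Rif1KO_shMcm6.

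Taking the loci of each kind as a pool, ISs were sparser in the B cell loci than in the T cell loci in all 4 lists. The WT list had 21 ISs in the 6.35 Mb of B cell loci (3.31 per Mb) and 32 in the 2.65 Mb of T cell loci (12.1 per Mb), a ratio of 0.274 (95% interval 0.15 to 0.49). The Rif1KO ratio was 0.245 (0.146 to 0.402), from 27 and 46 ISs. The hairpin ratios were nearer to 1, at 0.664 (0.538 to 0.822) in Rif1KO_shLacZ from 234 and 147 ISs, and 0.645 (0.529 to 0.788) in Rif1KO_shMcm6 from 258 and 167. All 4 intervals stayed below 1. ISs lie in clusters, so the true spread is wider than counting alone gives. Counting only unique 50-base windows, of which the B cell loci had 4.68 Mb and the T cell loci 1.67 Mb, lowered the ratios to 0.234, 0.209, 0.567 and 0.55 in the same order. By locus, the T cell loci did not move together. In WT, alpha/delta had 15.8 per Mb, whereas beta had 2.67, below kappa at 5.31 and the whole list at 9.51. In Rif1KO, alpha/delta had 20.5 per Mb and beta 9.33, below lambda at 12 and the whole list at 12.4. In these lists only alpha/delta stood above the whole list, and the heavy chain was at 1.38 per Mb in both. In Rif1KO_shLacZ the order from the lowest was heavy chain (33.8), kappa (38.4), lambda (52), alpha/delta (53.7) and beta (60 per Mb), and neighbours in that order had overlapping counting intervals.

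**Figure D4:**
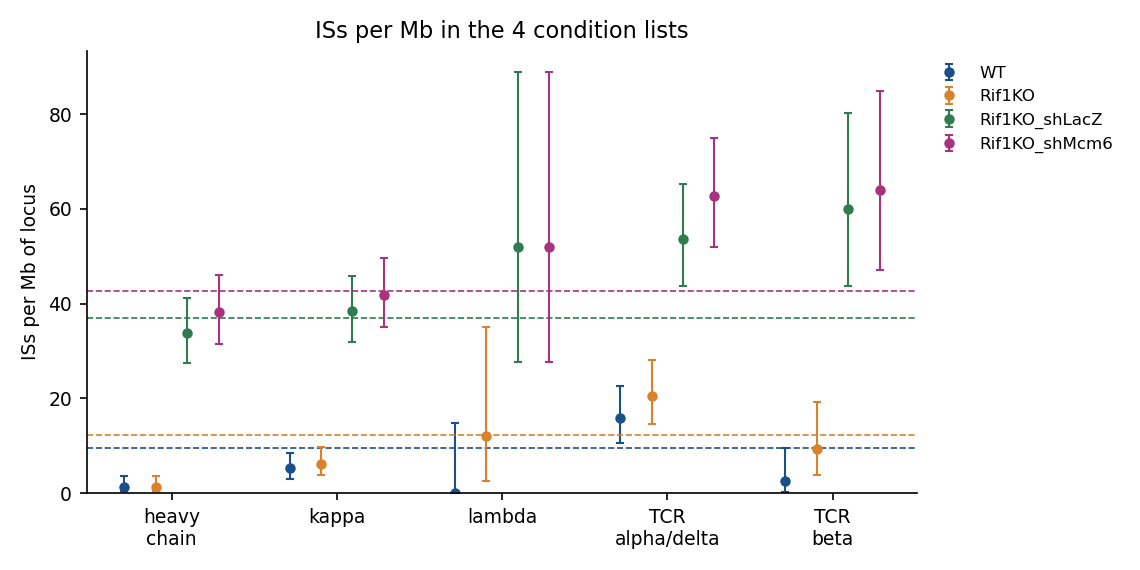
ISs per Mb (vertical) in each locus for the 4 condition lists, as points with exact 95% Poisson intervals, and the level of each whole list as a dashed line in its colour. WT and Rif1KO lie below their whole-list level at the heavy chain and kappa and above it at alpha/delta (15.8 and 20.5 per Mb), and the hairpin groups lie near or above theirs at all 5 loci.

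No antigen receptor IS differed by 1.5-fold or more between Rif1KO and WT. The count was 0 of 82 in either direction, where 2.27% of all ISs of the table were higher and 2.7% lower past that fold. A count of 0 of 82 allows a share of up to 3.66%, which lies above each of these shares and below the 4.96% of all ISs past that fold in either direction. Members of 1 locus are not independent, so this limit is tighter than the true spread allows. At the alternative threshold of 0.32 on the log2 scale, 9 members were higher and 3 lower (14.6% in all), where 12.9% of all ISs were higher and 11.5% lower. The members' log2 fold changes ran from -0.39 to 0.57. The median was 0.17 over the 33 ISs of the B cell loci and 0.10 over the 49 of the T cell loci, against 0.02 over the whole table. The quartiles overlapped widely, at 0.01 and 0.26 for the B cell loci and -0.09 and 0.19 for the T cell loci, and the difference of the medians, 0.07, turned to -0.04 without the kappa locus. From summed reads the B cell loci differed from the T cell loci by 0.06 on the log2 scale (-0.03 to 0.16). By locus the medians were 0.01 for the heavy chain, 0.17 for kappa, 0.22 for lambda, 0.06 for alpha/delta and 0.13 for beta. The 3 lambda ISs all had positive values, beside a median of 0.33 over the other 2171 ISs of their chromosome. At kappa, 19 of 24 values were above 0, with a median of 0.04 over the rest of the chromosome.

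Among members no less dense than the median IS, the highest values were those of an IS between Trav1 and Trav2 (chr14:53148220-53148854, 0.44, interval 0.005 to 0.88), an IS 199 bases from Igkv1-122 (chr6:67965924-67966537, 0.39, -0.05 to 0.84) and the Trac IS. The lowest were 3 alpha/delta ISs between -0.21 and -0.19, with intervals that crossed 0. The lists overlapped at the loci about as they did elsewhere. Of the 53 WT ISs, 44 overlapped a Rif1KO IS (83%, Wilson interval 70.8 to 90.8%), beside 78.6% of the whole WT list, and 44 of the 73 Rif1KO ISs had a WT counterpart (60.3%), beside 60.3% of the whole Rif1KO list.

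In Rif1KO_shMcm6 cells, 23 of the 482 members were higher than in Rif1KO_shLacZ past 1.5-fold and 4 were lower. Over the whole hairpin table, 4.8% of ISs were higher and 1.51% lower past that fold, so the member shares of 4.77% and 0.83% were near the background. At 0.32 on the log2 scale, 54 members were higher and 51 lower, where 14.4% of all ISs were higher and 11.5% lower. The heavy chain was uneven, with 15 of its 124 ISs higher (12.1%, Wilson interval 7.46 to 19%) and 1 lower, whereas kappa had 2 of 161 higher and 2 lower, lambda 1 of 15 each way, alpha/delta 2 of 127 higher and none lower, and beta 3 of 55 higher and none lower. Without the heavy chain, 11 members in all passed the fold. Within 2 Mb on either side of the heavy chain 5.18% of ISs were higher (13 of 251). Since ISs of 1 locus share their libraries and their chromosome, they are not replicates, and the share is given as a description of these pooled libraries.

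All 15 higher heavy chain ISs lay over the V segments, with 5 of 31 ISs in the stretch nearest the constant genes, 3 of 28 in the middle stretch and 7 of 44 in the farthest when the span was cut into 3 equal lengths. Their densities ran from 0.56 to 3.13 log2 RPM in Rif1KO_shLacZ (31 to 184 reads) and from 1.63 to 4.12 in Rif1KO_shMcm6 (73 to 410 reads). They were picked out by the fold itself, so these values are a description. In the lists, 9 of them were called in Rif1KO_shMcm6 only, 5 in both groups and 1 in Rif1KO_shLacZ only. They came mostly from weak ISs, with 6 of the 24 heavy chain ISs in the lowest class of density (25%) and 5 of the 31 in the next (16.1%), beside 10.2% and 4.36% over the whole table. In the class above, 1 of 37 was higher (2.7%), beside 2.66%, and in the highest class 3 of 32 were (9.38%), beside 1.99%. These 3 were also the members with the highest fold change among those no less dense than the median IS. An IS 4.89 kb from Ighv8-12 (chr12:116879982-116881279) had 2.81 log2 RPM in Rif1KO_shLacZ and 4.10 in Rif1KO_shMcm6 from 148 and 404 reads, a log2 fold change of 1.29 (1.01 to 1.57). An IS 2.85 kb from Ighv1-74 (chr12:117036893-117038013) had 3.13 and 4.12 log2 RPM from 184 and 410 reads, a log2 fold change of 0.99 (0.74 to 1.25). An IS 3.09 kb from Ighv1-64 (chr12:116741654-116742662) had 2.92 and 3.81 log2 RPM from 159 and 331 reads, a log2 fold change of 0.89 (0.62 to 1.18). The 2 densest ISs over the V segments, by contrast, were level or slightly lower. The IS at chr12:116970067-116971752 had a log2 fold change of -0.05 (-0.23 to 0.12) and that at chr12:116029818-116030780 one of -0.16 (-0.36 to 0.03).

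**Figure D5:**
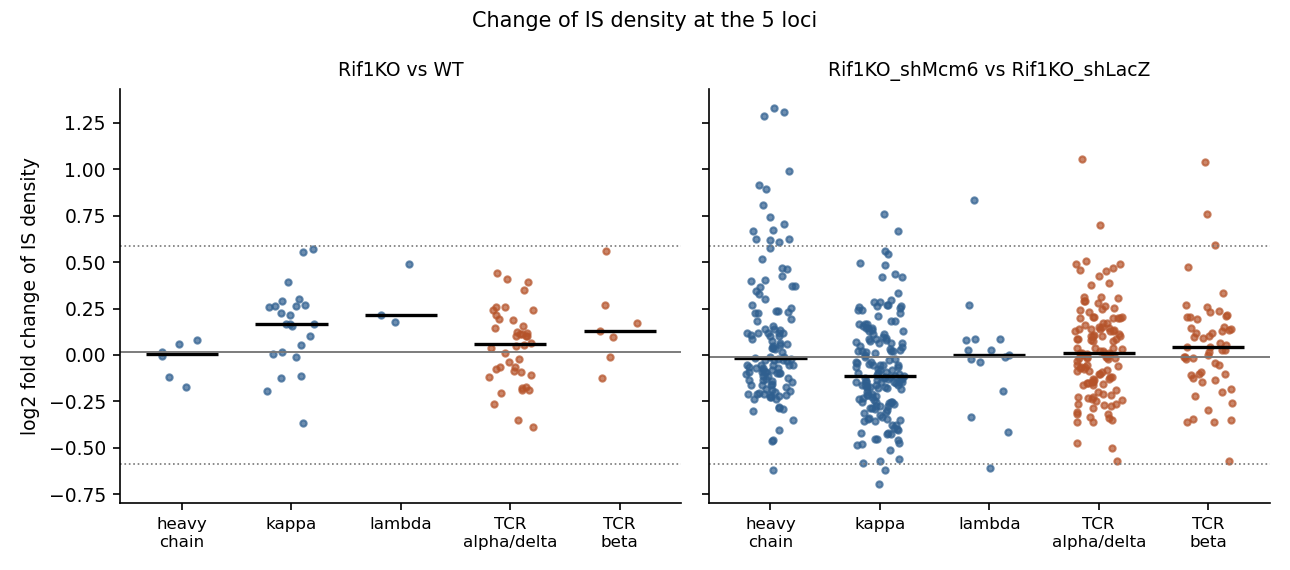
Log2 fold change of IS density (vertical) for each IS of the 5 loci in the 2 tables, with B cell loci in blue, T cell loci in orange, a bar at each median, a solid line at the whole-table median and dotted lines at 1.5-fold. No point passes the dotted lines on the left, and 15 heavy chain points lie above the upper line on the right.

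The medians of the hairpin comparison were small. The median log2 fold change was -0.05 over the 300 ISs of the B cell loci and 0.02 over the 182 of the T cell loci, against -0.01 over the whole table, with quartiles of -0.20 and 0.14 and of -0.13 and 0.16. Neither sign was stable. The B cell median was 0.000304 when centred on 2 Mb flanks, and the T cell median was -0.014 among ISs called in both conditions and -0.0028 when centred on the rest of each chromosome. From summed reads the B cell loci stood 0.04 below the T cell loci on the log2 scale (-0.07 to -0.01). By locus, summed reads gave 0.07 (0.04 to 0.09) for the heavy chain, -0.08 (-0.11 to -0.05) for kappa and -0.03 (-0.12 to 0.05) for lambda. They gave 0.01 for alpha/delta and 0.08 for beta. The lowest median was that of kappa, at -0.11 with 57 of 161 values above 0, beside -0.07 within 2 Mb of that locus. The heavy chain median was -0.02, lambda -0.002, alpha/delta 0.01 and beta 0.04. Without kappa the difference between the B and T cell medians shrank from -0.07 to -0.03. The lowest fold changes among the denser members belonged to an alpha/delta IS 4.63 kb from Trav3-4 (chr14:54391297-54391998, -0.47, interval -0.78 to -0.17) and to 2 kappa ISs near the lower bound (chr6:67700351-67701116 and chr6:67535314-67536056, -0.47 and -0.45). At beta, 2 of the 3 higher ISs (chr6:41520426-41520936 and chr6:41521845-41522633) lay beyond Trbv31, the last segment, and went from 2.05 to 3.08 and from 2.57 to 3.16 log2 RPM.

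Some members were measured in both tables. Their median log2 fold changes for Rif1KO against WT and for Rif1KO_shMcm6 against Rif1KO_shLacZ were 0.01 and -0.11 for 4 heavy chain ISs, 0.17 and -0.15 for 19 kappa ISs, 0.22 and 0.08 for 3 lambda ISs, 0.07 and 0.002 for 37 alpha/delta ISs, and 0.13 and 0.14 for 6 beta ISs. The tables share no library, and the densities behind each value were scaled within its own table.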

How the data were processed

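SNS-seq libraries of CH12 cells (4 groups, 2 libraries each, grouped by their labels) were examined. The authors trimmed reads with Trim Galore 0.6.4 and cutadapt 2.6, aligned them uniquely to mm9 with Bowtie 1.2.3, called peaks with MACS without input, kept peaks found in both replicates with bedtools, retained those in clusters and merged them per contrast. Unique alignment leaves repeated sequence with few reads. The deposited tables hold IS densities that the authors computed as log2 RPM, with 1 pooled value per condition. Reads were recovered from these values (100% whole within 0.01 read).

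Log2 fold changes were differences of deposited densities, and 1.5-fold was the threshold. Poisson counts gave 95% intervals (exact or Wilson for rates and shares), which cover counting error only. There was no test over replicates. Genes came from the NCBIM37 annotation and names from RefSeq (GRCm38). A 50-base window was unique when it occurred once in the genome. For a count of 0, the limit given in the text was 3 counts, and bars in the plot of shares by density are Wilson intervals. The ISs ranked by fold change were the 3 highest and 3 lowest per table among members no less dense than the median IS. Most others were the densest of each locus or those at constant genes. The beta ISs beyond Trbv31, the densest ISs over the heavy chain V segments and some ISs at other genes were named in addition. Python 3.11.15, numpy 2.4.6, pandas 2.3.3 and scipy 1.17.1 were used, and scripts were tested on simulated data. The loci, lists and rules were chosen with earlier results of these data known.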

Additional observations from a re-analysis of the deposited data

How the results depend on the processing

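No paired analysis was possible because replicates were merged into a single density for each group, and for the same reason no replicate could be left out. A stricter peak score was not run because the lists hold no score. Of the alternatives, 67 kept the sign of a result and stayed within its counting or order interval (or, for a count, within 1.5 times), 10 moved it further and 4 turned its sign. Some of the 67 carry no information. Counting ISs that only overlap a locus changed no value, and a stricter fold or a subset of the same ISs could only repeat a count of 0. The 0 ISs past 1.5-fold between Rif1KO and WT became 12 at a log2 fold change of 0.32 (14.6%, beside 24.3% of all ISs). In the hairpin table the 27 ISs (5.6%, beside 6.31% of all ISs) became 105 at that threshold (21.8%, beside 25.9%), 5 at 2-fold (1.04%, beside 1.02%), 13 without the weakest 25% of ISs (3.67%, beside 3.91%), 14 on the log2(RPM + 1) scale (2.9%, beside 3.5%), 8 among ISs called in both conditions (2.49%, beside 2.05%) and 11 without the heavy chain locus. The median of the B cell loci in that table (-0.05) was 0.000304 when centred on 2 Mb flanks and -0.0084 from summed RPM, and that of the T cell loci (0.02) was -0.014 among ISs called in both conditions and -0.0028 when centred on the rest of each chromosome. The B minus T difference for Rif1KO against WT (0.07) was -0.039 without kappa. Centring on the chromosome kept the sign of that difference and of the B cell median (0.17) but lowered them to 0.01 and 0.07. With an overlap of 50% of both ISs, the share of Rif1KO_shLacZ ISs that met a Rif1KO_shMcm6 IS was 79.5% in place of 84.5% (80.9% and 85.7% of the whole list), and that of Rif1KO ISs that met a Rif1KO_shLacZ IS was 63% in place of 76.7% (67.1% and 79.8% of the whole list). The rates per unique sequence and the count without the heavy chain were chosen after seeing the data. The median IS held 73 reads in WT and 141 in Rif1KO_shLacZ, which limits single ISs most in the first table.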

Other observations

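Of the 82 ISs of the Rif1KO and WT table, 13 had no counterpart in the hairpin table, near the share over all ISs, where 6442 of 39116 had none. The 13 included the IS upstream of Ighm and the Ighj2 IS, the densest pair of the heavy chain. Of the 2747 ISs in the genome at least as dense as the Ighj2 IS, 85.9% had a counterpart. Over the hairpin lists, 14.7% of the 381 Rif1KO_shLacZ ISs in the loci overlapped a Rif1KO IS, beside 26.3% of the whole list. By locus the share was 32.4% at alpha/delta, 23.1% at lambda (3 of 13), 11.1% at beta, 10.6% at kappa and 2.04% at the heavy chain (2 of 98). The gene model of Trav13-5, a V segment of the alpha chain, held an IS near its start in both tables (chr14:54415502-54416236 and chr14:54415245-54416241), with 5.26 log2 RPM in WT, 5.51 in Rif1KO, 4.10 in Rif1KO_shLacZ and 4.08 in Rif1KO_shMcm6.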
